A study of Saccharomyces cerevisiae with 12 samples.

Results

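The Ty retrotransposon loci of the *S. cerevisiae* genome were taken from 3 tables of gene expression, 1 for each tetracycline against the same controls. The members were every row whose locus spanned 4400 to 6000 bases and whose systematic name ended in -A, -B, -C or -D, plus 9 named Gag-Pol genes, with 1 row kept per locus. This rule found 63 of the 7080 rows of a table, at 45 of its 6340 loci. Of these 45 loci, 27 lay inside a Ty element of the RefSeq annotation of R64, namely 16 Ty1, 8 Ty2, 2 Ty3 and 1 Ty4. The other 18 carried no Ty element, so the name of the set did not hold for them, and they are described apart. Of the 27 Ty loci, 22 were listed above 0 in the controls, namely 13 Ty1, 6 Ty2, 2 Ty3 and 1 Ty4. Of the 9 named genes, 6 had a row, and YER138C, YER160C and YJR027W were not analysed here.

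RNA came from 12 cultures in 4 groups of 3, the controls in plain YPD and the others in YPD that held tetracycline (Tet), doxycycline (Dox) or 4-epidoxycycline (4-ED) at 1.5 μg/ml. The sample labels name strain BY4741, and the methods of the study name its derivative R1158, a MATa strain in which a tetracycline-responsive transactivator (tTA), under the CMV promoter, is integrated at URA3, and which carries his3, leu2 and met15 alleles. All 4 groups, controls included, carry tTA, and cultures with a tetracycline took longer than the controls to reach the density at which cells were collected. Each table lists 1 pooled value per group in FPKM, a fragment number scaled to transcript length and library size, so the spread between the 3 cultures of a group is unknown, no error can be given and no test was made here for any value, and every comparison below is a description. The depth behind a single locus is unknown for the same reason, and a change of growth rate or of RNA per cell cannot be told apart from a change at a locus.

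Ty elements are retrotransposons that copy themselves through RNA. Each full element is flanked by long terminal repeats (LTRs), of which the upstream copy holds the promoter, and encodes the capsid protein Gag followed by Pol, which carries protease, integrase and reverse transcriptase. Pol is made only when ribosomes shift reading frame at the end of Gag, so Gag and Gag-Pol are read from the same RNA, and reverse transcription of Ty1, Ty2 and Ty3 is primed by the initiator methionine tRNA of the host. In yeast, Ty1 RNA is among the more abundant RNAs transcribed by RNA polymerase II, and Ty3 is known for its induction by mating pheromone.

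The frameshift site is shown because it joins the Gag row and the Gag-Pol row that the tables list at the same locus. The sequences are from the RefSeq genome of R64, written 5′ to 3′ on the strand of the element, and the capitals mark the slip heptamer. The heptamer CTTAGGC was found at all 25 Ty1, Ty2 and Ty4 loci, and GCGAGTT at both Ty3 loci, which makes 27 of 27.
YJR029W (Ty1, chrX:479621-479665, + strand): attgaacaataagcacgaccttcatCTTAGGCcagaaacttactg
YMR045C (Ty1, chrXIII:361302-361346, - strand): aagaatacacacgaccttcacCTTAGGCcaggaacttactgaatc
YCL019W (Ty2, chrIII:86368-86412, + strand): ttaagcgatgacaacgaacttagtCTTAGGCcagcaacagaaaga
YGR109W-B (Ty3, chrVII:708436-708480, + strand): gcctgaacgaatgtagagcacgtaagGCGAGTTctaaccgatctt
YHL009W-B (Ty4, chrVIII:86971-87015, + strand): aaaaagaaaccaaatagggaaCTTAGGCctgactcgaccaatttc

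The start of the internal region is shown because it holds the primer site, which sets Ty3 and Ty4 apart from Ty1 and Ty2. The capitals mark the bases complementary to the 3′ end of the initiator methionine tRNA with its CCA tail (TGGTAGCGCC). The match covered 10 bases in Ty1 and Ty2 and 8 bases in Ty3, and it was not present in Ty4.
YJR029W (Ty1, chrX:478383-478412, + strand): caTGGTAGCGCCtgtgcttcggttacttct
YCL019W (Ty2, chrIII:85141-85170, + strand): caTGGTAGCGCCtatgcttcggttacttct
YGR109W-B (Ty3, chrVII:707533-707562, + strand): caccTGGTAGCGttaaaggttactaattgt
YHL009W-B (Ty4, chrVIII:85908-85937, + strand): catggcgaccccagtgagggatgaaacaag

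Copies within a family were nearly the same. Each locus was identical to its nearest copy in the genome at 97.6% to 100% of the aligned positions where both had a base, with gaps left out. Measured in this way, the Ty2 locus YGR161W-B and the Ty4 locus YHL009W-B each had a copy elsewhere at 100% identity. Reads were 76 bases long, so windows of 76 bases that occur once in the genome were counted as the part of a locus that a read can be placed in without doubt. These windows made up 0% to 17.1% of the Ty1 loci, 0% to 23.2% of the Ty2 loci, 48.1% to 48.8% of the Ty3 loci and 2.77% of the Ty4 locus. YJR029W and YOR142W-B (Ty1) and YGR161W-B (Ty2) held none, although the tables list all 3 well above 0. The level of a single Ty1 or Ty2 locus therefore depends on how shared reads were divided between copies. Values summed over the loci of a family depend on it less, but these sums do not cover the whole of Ty1, Ty2 or Ty4. The annotation lists 31 Ty1, 13 Ty2 and 3 Ty4 elements, and some nearest copies lie outside the set. The sums thus still depend on how reads were divided with those copies.

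In the controls, the Ty1 loci were listed at the highest levels and the Ty4 locus at the lowest. The median control value over all rows of the Tet table was 55.0 FPKM, and the 13 Ty1 loci all lay above it, from 77.4 to 213 FPKM. The highest were YJR029W on chromosome X (213 FPKM), YLR157C-B on chromosome XII (197 FPKM) and YML039W on chromosome XIII (188 FPKM). The lowest were the locus of YPRCTy1-4 on chromosome XVI, 850989 to 856257, whose row carries no identifier (77.4 FPKM), YDR210C-D on chromosome IV (106 FPKM) and YNL054W-B on chromosome XIV (112 FPKM). The 6 Ty2 loci lay between 31.0 and 40.4 FPKM, the 2 Ty3 loci at 14.4 and 14.5 FPKM and the Ty4 locus YHL009W-B at 10.2 FPKM. The families did not overlap in the level of these rows, and the spread within a family was 2.75 times in Ty1 and 1.30 times in Ty2. With the Gag row of the same locus added, the Ty3 locus of YIL082W-A held 33.0 FPKM and that of YGR109W-B 25.1 FPKM, the former inside the Ty2 range. FPKM is a value per length, but the division of shared reads still limits the comparison of single copies. The order of the families stayed Ty1, Ty2, Ty3 and Ty4 with each tetracycline.

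**Figure D1:**
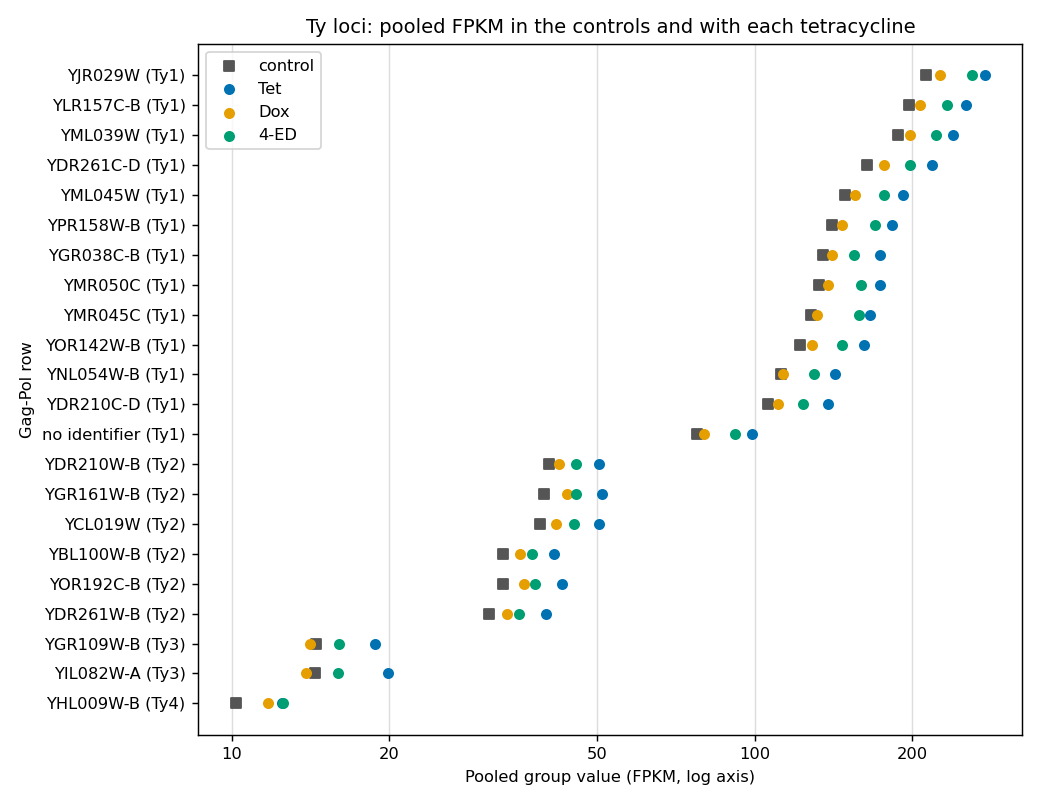
Pooled FPKM (log axis) of the 22 Ty loci with a value, sorted by family and control level; squares are the controls of the Tet table and circles the cultures with Tet, Dox or 4-ED. With Tet and 4-ED every circle lies to the right of its square, and the Dox circles lie close to the squares.

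With Tet, the row used was listed higher than in the controls at all 22 Ty loci. At the 2 Ty3 loci the summed FPKM of the Gag and Gag-Pol rows was nearly that of the controls (log2 ratios 0.02 and 0.03). The log2 ratio of Tet to control FPKM had a median of 0.37 over the 22 loci, a value 1.29 times that of the controls, and ranged from 0.29 to 0.46. Over the 6516 rows of at least 1 FPKM in both of the groups, the filter used throughout, the median was 0.07, and all 22 Ty loci lay above that. None was past 1.5 times in either direction, where 3.65% of all rows were past it upward and 1.46% downward. At least 25% higher were 19 of the 22 Ty loci, namely 13 Ty1, 4 Ty2 and 2 Ty3, where 16.1% of all rows were that much higher and 5.56% at least 20% lower. Of all rows, 11.9% had a higher log2 ratio than the Ty median.

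The Ty1 loci varied little among themselves with Tet. YJR029W stood at 213 FPKM without and 276 FPKM with Tet (log2 ratio 0.37), and YLR157C-B at 197 and 253 FPKM (log2 ratio 0.36). The highest log2 ratios were in YDR261C-D on chromosome IV (0.42, from 164 to 219 FPKM), in YOR142W-B on chromosome XV (0.41, from 122 to 162 FPKM) and in YMR050C on chromosome XIII (0.39, from 133 to 173 FPKM). The lowest were in YNL054W-B (0.34, from 112 to 142 FPKM), in YML039W (0.35, from 188 to 239 FPKM) and in the row without an identifier (0.35, from 77.4 to 98.9 FPKM). The distance between the highest and the lowest Ty1 ratio was smaller than the distance of either from the median of all rows. The copies share reads and the same pooled libraries, so this closeness does not measure the spread between cultures. The 13 Ty1 loci together held 1863 FPKM in the controls and 2416 FPKM with Tet (log2 ratio 0.37).

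The Ty2 loci with Tet overlapped the Ty1 loci in their ratios, with YDR210W-B and YBL100W-B below every Ty1 locus. YDR210W-B and YDR261W-B on chromosome IV were listed at 40.4 and 31.0 FPKM in the controls and at 50.3 and 39.8 FPKM with Tet. YGR161W-B on chromosome VII was listed at 39.5 and 51.1 FPKM, and YOR192C-B on chromosome XV at 33.0 and 42.8 FPKM. YBL100W-B on chromosome II, the Ty2 locus with the most unique sequence, stood at 33.0 FPKM without and 41.2 FPKM with Tet. YCL019W on chromosome III, the neighbour of LEU2, was listed at 38.8 and 50.3 FPKM. The log2 ratios of the 6 loci ran from 0.32 to 0.38, and their sum went from 215.6 to 275.6 FPKM (log2 ratio 0.35). The Ty4 locus YHL009W-B had the lowest ratio of all 22 (0.29, from 10.2 to 12.4 FPKM).

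At the 2 Ty3 loci, the Gag-Pol and Gag rows went in opposite directions with Tet. The Gag-Pol row YGR109W-B on chromosome VII stood at 14.5 FPKM without and 18.8 FPKM with Tet (log2 ratio 0.37), and the Gag row YGR109W-A of the same locus at 10.6 and 6.91 FPKM (log2 ratio -0.62). The Gag-Pol row YIL082W-A on chromosome IX was listed at 14.4 and 19.9 FPKM (log2 ratio 0.46), the highest ratio of the 22 loci, and the Gag row YIL082W of that locus at 18.6 and 13.6 FPKM (log2 ratio -0.45). Both rows of a locus share the Gag reading frame, and with both added the 2 Ty3 loci together were listed at 58.1 FPKM in the controls and 59.1 FPKM with Tet, a log2 ratio of 0.02. The higher Ty3 value with Tet is thus seen in the Gag-Pol rows and hardly in the summed FPKM of both rows. FPKM is a value per length, so this sum does not weight the rows by their length. The fragments of the whole locus were not compared. At the Ty1, Ty2 and Ty4 loci the second row was listed at 0 in the controls and with Tet, so adding it left their values as they were.

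With Dox, the Ty loci differed little from the controls. The median log2 ratio over the 22 loci was 0.04, the range ran from -0.08 to 0.18, and 19 loci were above 0, against a median of -0.03 over 6502 rows. No Ty locus was past 1.5 times in either direction, where 1.77% of all rows were past it upward and 2.88% downward. None was at least 25% higher or 20% lower, where 8.24% of all rows were that much higher and 11.7% that much lower. Of all rows, 37.7% had a higher log2 ratio than the Ty median.

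The 3 loci below their controls with Dox were the Ty1 locus YNL054W-B and both Ty3 loci. YNL054W-B stood at 113.9 FPKM in the controls of the Dox table and 113.4 FPKM with Dox, a log2 ratio of -0.01. YGR109W-B was listed at 14.7 and 14.1 FPKM (log2 ratio -0.06) and YIL082W-A at 14.7 and 13.9 FPKM (log2 ratio -0.08). Among Ty1, YDR261C-D had the highest ratio (0.08, from 167 to 176 FPKM), ahead of YJR029W (0.07, from 216 to 226 FPKM) and YML039W (0.05, from 191 to 198 FPKM). YMR045C on chromosome XIII (0.02, from 129.9 to 131.3 FPKM) and the row without an identifier (0.03, from 78.6 to 80.0 FPKM) were among the lowest. The Ty2 loci ran from 0.04 in YDR210W-B to 0.12 in YGR161W-B. The Ty4 locus YHL009W-B was the highest of the 22 (0.18, from 10.3 to 11.7 FPKM). The sums went from 1893 to 1951 FPKM in Ty1, from 219 to 233 FPKM in Ty2 and from 29.4 to 27.9 FPKM in Ty3.

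With 4-ED, all 22 Ty loci were again listed above the controls. The median log2 ratio was 0.24, 1.18 times the controls, and the range ran from 0.15 to 0.31, against a median of -0.01 over 6511 rows. No Ty locus was past 1.5 times in either direction, where 4.96% of all rows were past it upward and 2.15% downward. None was at least 25% higher or 20% lower, where 12.5% of all rows were that much higher and 9.18% that much lower. Of all rows, 17.3% had a higher log2 ratio than the Ty median.

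The family medians with 4-ED were 0.26 in Ty1, 0.21 in Ty2, 0.15 in Ty3 and 0.31 in Ty4. YMR045C stood at 127 FPKM in the controls of the 4-ED table and 158 FPKM with 4-ED, the highest ratio of the Ty1 loci (0.31), and YJR029W at 211 and 261 FPKM (0.30). YMR050C followed (0.28, from 132 to 160 FPKM), and the lowest Ty1 ratios were in YGR038C-B on chromosome VII (0.21, from 134 to 155 FPKM), YNL054W-B (0.22, from 111 to 130 FPKM) and YDR210C-D (0.23, from 105 to 124 FPKM). The Ty2 loci ran from 0.18 in YDR210W-B to 0.22 in YCL019W, which was listed at 38.5 and 45.0 FPKM. The Ty3 loci YGR109W-B (from 14.4 to 16.0 FPKM) and YIL082W-A (from 14.3 to 16.0 FPKM) both had a log2 ratio of 0.15, and YHL009W-B one of 0.31 (from 10.1 to 12.5 FPKM). The Ty1 sum went from 1852 to 2225 FPKM (log2 ratio 0.26) and the Ty2 sum from 214 to 247 FPKM (log2 ratio 0.21).

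**Figure D2:**
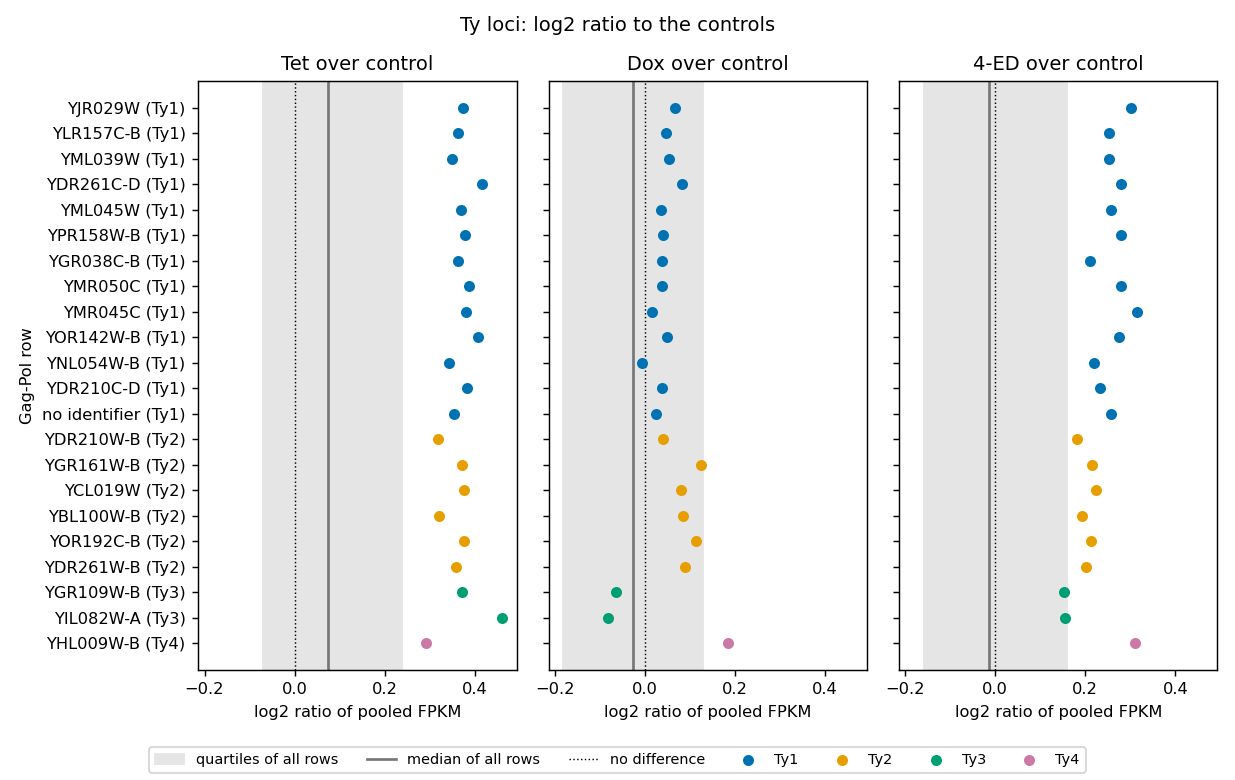
Log2 ratio of treatment to control FPKM for each of the 22 Ty loci, with 1 panel per tetracycline and colours for the families; the grey band runs from the lower to the upper quartile of all rows that pass the filter and the grey line is their median. The Tet points lie between 0.29 and 0.46, the Dox points between -0.08 and 0.18 and the 4-ED points between 0.15 and 0.31.

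The 3 compounds were given at the same dose, and their ratios are set side by side for 3 pairs, with no test and with the same controls in each. 4-ED is the epimer of Dox at the carbon that bears the dimethylamino group, and Dox differs from Tet in the ring position of a hydroxyl group. Between Dox and its epimer, the log2 ratio with 4-ED was higher at 22 of 22 Ty loci, by a median of 0.20 and a range of 0.09 to 0.30, where the median difference over all rows was 0.03. Between Tet and Dox, the log2 ratio with Tet was higher at 22 of 22 loci, by a median of 0.33 and a range of 0.11 to 0.54, where the median over all rows was 0.11. Between Tet and 4-ED, the ratio with Tet was higher at 21 of 22 loci, by a median of 0.13, where the median over all rows was 0.08. The exception was the Ty4 locus YHL009W-B, at 0.29 with Tet and 0.31 with 4-ED. The order Tet, 4-ED, Dox was thus shared by the Ty1, Ty2 and Ty3 Gag-Pol rows. The difference between Tet and 4-ED was close to that of all rows, and the intervals of these differences are unknown. Over all rows, the 5th to 95th percentiles were -0.40 to 0.54 for 4-ED minus Dox and -0.19 to 0.40 for Tet minus Dox. For Tet minus 4-ED they were -0.35 to 0.43, and each Ty median lay inside its span. The share of all rows that went the same way was not counted. Loci that share reads are not separate observations. With the FPKM of both rows of the Ty3 loci added, Ty3 left this order, and its log2 ratio was 0.02 for Tet, -0.09 for Dox and 0.13 for 4-ED. This sum does not weight the rows by their length, and the order in fragments was not tested.

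The control values of the Ty loci hardly depended on the table they were taken from. The Dox and 4-ED tables were scaled by factors of 1.02 and 0.993 against the Tet table, and after this scaling 95% of the Ty loci had control values within 0.00089 of each other on the log2 scale. The same control libraries were quantified in each table, so this shows how far a value depends on the run of Cuffdiff. It does not measure the spread between cultures.

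**Figure D3:**
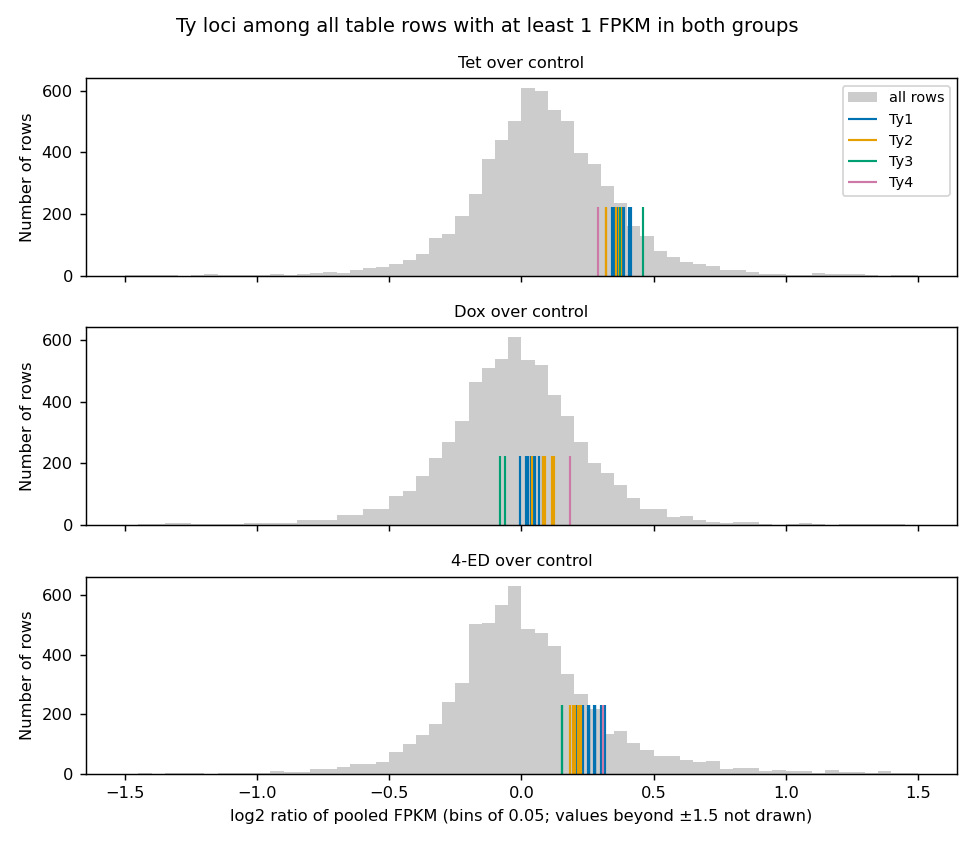
Histograms of the log2 ratio of all rows that pass the filter (grey, bins of 0.05), with 1 panel per tetracycline, and coloured lines at the values of the 22 Ty loci. The Ty lines form a narrow group right of the peak with Tet and 4-ED and lie near the peak with Dox.

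The Ty loci are among the longest rows of the tables, and the median log2 ratio of other genes differed between classes of length without a steady trend. With Tet it was 0.13 up to 500 bases, 0.03 from 2000 to 3000 bases and 0.12 over 4000 bases. Among protein-coding genes of over 4000 bases in the range of control FPKM that the Ty loci span, the median was 0.11 with Tet (151 genes), 0.10 with Dox (151 genes) and -0.02 with 4-ED (150 genes). With Tet, 24 of these 151 genes (15.9%) had a higher ratio than the Ty median, and with 4-ED it was 16 of 150 (10.7%). With Dox, it was 104 of 151 (68.9%), so against genes of like length the Ty loci were on the low side with Dox. Centred on all genes of at least 4000 bases, the Ty median was 0.26 with Tet and -0.07 with Dox. The part of gene length in the Ty values was not tested.

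**Figure D4:**
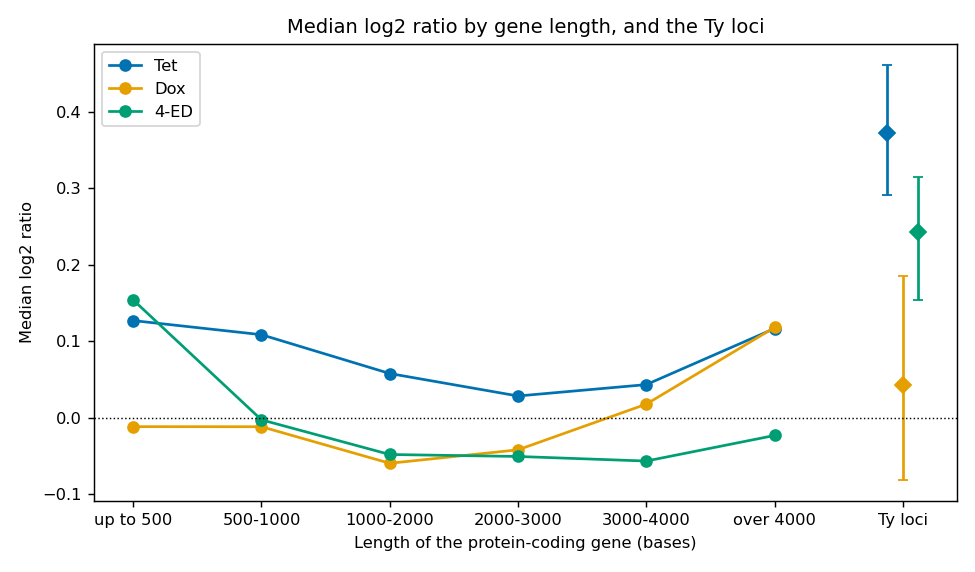
Median log2 ratio of protein-coding genes in 6 classes of length (circles) and of the 22 Ty loci (diamonds, with bars from the lowest to the highest locus), for each tetracycline. With Dox the genes of over 4000 bases (0.12) lie above the Ty loci (0.04), and with Tet and 4-ED they lie below.

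The level of each copy was set against its share of unique sequence. Across the 13 Ty1 loci, the Spearman correlation of the unique share with the control FPKM was -0.43, and across the 6 Ty2 loci it was -0.43. With the log2 ratios it was also negative throughout. Across the Ty1 loci it was -0.41 for Tet, -0.62 for Dox and -0.33 for 4-ED, and across the Ty2 loci -0.60 for Tet, -0.37 for Dox and -0.77 for 4-ED. These 8 correlations describe loci that share reads and libraries, and the part of read sharing in the ratios was not tested. The Ty1 loci with the most unique sequence, YNL054W-B (17.1%) and YMR045C (13.2%), had log2 ratios of 0.34 and 0.38 with Tet and of 0.22 and 0.31 with 4-ED, of which the Tet ratio of YNL054W-B was the lowest and the 4-ED ratio of YMR045C the highest of the Ty1 loci.

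**Figure D5:**
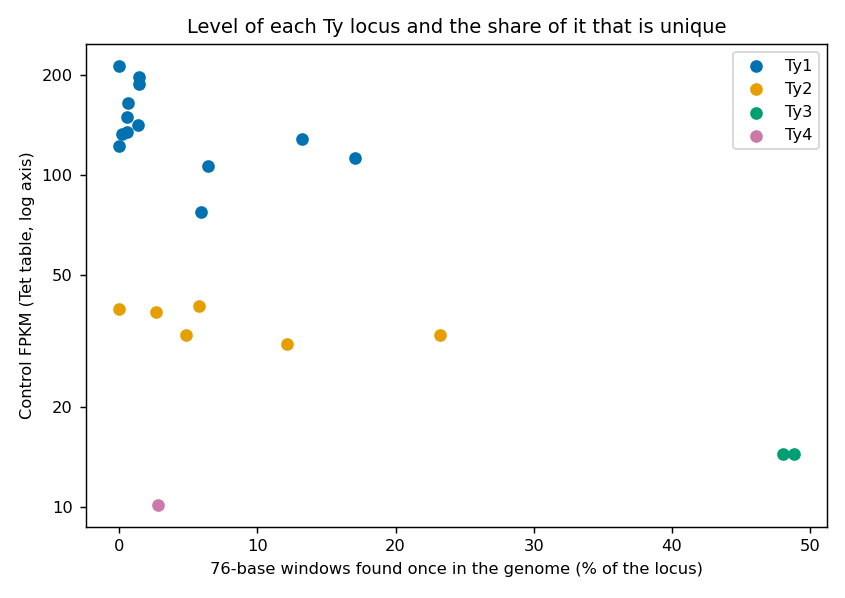
Control FPKM (log axis, Tet table) of each of the 22 Ty loci against the share of its 76-base windows that occur once in the genome, coloured by family. The 2 Ty1 loci without unique windows lie at 213 and 122 FPKM, and the Ty3 loci, with 48.1% and 48.8% unique windows, lie at 14.4 and 14.5 FPKM.

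The Gag rows of Ty1 and Ty4 had values only with 4-ED. All 11 Ty1 Gag rows and the Ty4 Gag row YHL009W-A were listed at 0 in the controls, with Tet and with Dox, and all 12 were listed above 0 with 4-ED. The Ty1 Gag rows then lay between 0.220 FPKM in YMR046C and 1.58 FPKM in YNL054W-A, with a median of 0.853, and YHL009W-A at 0.0440 FPKM. These values were small beside the Gag-Pol rows of the same loci, as in YNL054W-B, listed at 130 FPKM with 4-ED. The 7 Ty2 Gag rows were listed at 0 in every group. Of the 387 rows at 0 in the controls of each table, 7.49% were above 0 with Tet, 6.72% with Dox and 10.6% with 4-ED. These shares include the rows at Ty elements. Outside them, 28 rows at 0 in the controls were above 0 with Tet, 26 with Dox and 28 with 4-ED. How Cuffdiff divided fragments between the Gag and Gag-Pol rows of a locus was not tested, and a listed 0 is not taken as absence of Gag RNA. The 5 Ty loci without a control value had only such a Gag row, namely YER159C-A, YHR214C-C and YPR137C-A (Ty1) and YDR034C-C and YOR343W-A (Ty2).

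Other rows that touch Ty elements were few. YMR046W-A, a reading frame of 129 bases inside the upstream LTR of the element of YMR045C and on the opposite strand, stood at 2025 FPKM without and 2718 FPKM with Tet (log2 ratio 0.42). With Dox and 4-ED its log2 ratios were 0.11 and 0.44, so its ratio with Dox was the lowest of the 3, as at the Ty1 loci, and whether reads were counted by strand is not given in the sources used here. YDR170W-A, a Gag reading frame outside an annotated element, was listed at 35.1 and 35.2 FPKM with Tet, at 35.7 and 30.1 FPKM with Dox and at 34.9 and 44.0 FPKM with 4-ED. It did not follow the Ty1 loci with Tet. The Ty4 fragment YJL114W was at 2.71 FPKM in the controls, and the rows of the Ty5 element on chromosome III (YCL074W, YCL075W and YCL076W) were under 0.1 FPKM in every group.

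The upstream LTRs were searched on both strands for the letters bound by known regulators of Ty transcription. The sequence of the elements downstream of these LTRs was not searched, so the counts do not cover sites there. TGAAACA, bound by Ste12, the transcription factor of the mating pathway, was found in 4 of 15 Ty1 LTRs, in both Ty3 LTRs and in no Ty2 or Ty4 LTR, beside 7.91% of 5905 windows of 334 bases, the length of a typical Ty1 LTR, upstream of yeast genes. The Ty1 and Ty3 sites are shown because they differ in the letters around the match, which is in capitals.
YMR045C (Ty1, chrXIII:362747-362775, - strand): taataggataaTGAAACAtataaaacgga
YGR109W-B (Ty3, chrVII:707251-707279, + strand): taaaacacataTGAAACAaccttataaca

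The same window of letters stood in the LTRs of YML045W and YOR142W-B as in YMR045C. These 3 loci had log2 ratios of 0.37 to 0.41 with Tet, within the range of the other Ty1 loci. CATTCC, bound by Tec1, the partner of Ste12, was found in 10 of 15 Ty1, 1 of 8 Ty2, both Ty3 and the Ty4 LTR (10.8% of the gene windows). Its variant CATTCT was found in 4 of 8 Ty2 LTRs and in no LTR of the other families (19.6% of the gene windows). TGACTC, bound by Gcn4, was in no LTR searched (8.79% of the gene windows). CATTCC and CATTCT differ in their last base, so no site counts for both, and a match describes letters and not binding.

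The host genes of the Ty life cycle were read from 5 lists of genes chosen for their known roles. Beside their counts stand the shares of all rows past 1.5 times, which were 3.65% upward and 1.46% downward with Tet, 1.77% and 2.88% with Dox and 4.96% and 2.15% with 4-ED, so that 0 or 1 gene of a list of 10 to 19 is near the background. The medians over all rows were 0.07, -0.03 and -0.01. Of 16 transcription factors and co-activators that act on Ty promoters, none was past 1.5 times with any compound, and their median log2 ratio was 0.15 for Tet, 0.03 for Dox and -0.05 for 4-ED. SNF6, a subunit of the SWI/SNF remodeller, had the highest ratio with Tet (0.37, from 205 to 266 FPKM), followed by STE12 (0.31, from 11.8 to 14.6 FPKM). SPT7, a subunit of the SAGA co-activator, had the highest with Dox (0.29, from 25.6 to 31.2 FPKM), and SPT3, another SAGA subunit, was at -0.08. TEC1 was at 65.6 FPKM in the controls and 53.3 FPKM with Dox (-0.30), and TEA1, an activator of Ty1, at 7.17 and 5.18 FPKM with 4-ED (-0.47). TYE7 was also lower with 4-ED (-0.36, from 86.8 to 67.8 FPKM).

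Among 19 repressors of Ty transcription and regulators of transposition, RTT107 was past 1.5 times upward with all 3 compounds. RTT107, a scaffold of the DNA damage response named for its effect on Ty1 transposition, was listed at 11.3 and 18.5 FPKM with Tet (0.71), at 11.5 and 17.9 FPKM with Dox (0.65) and at 11.2 and 17.9 FPKM with 4-ED (0.68). RTT10, also found as a regulator of Ty1 transposition, was past 1.5 times downward with 4-ED (-0.68, from 6.99 to 4.36 FPKM), where Tet gave -0.44 and Dox 0.08. SGS1, a DNA helicase, was at 8.69 and 12.7 FPKM with Tet (0.55). ELG1, a factor of DNA replication, followed RTT107 with Dox (0.32), and RTT109, a histone acetyltransferase, followed it with 4-ED (0.34). SSL2, a TFIIH helicase that inhibits Ty1, was the lowest with Dox (-0.29, from 162 to 133 FPKM), and RTT105 was at -0.16 with Dox and -0.30 with 4-ED. HIR1, a histone chaperone subunit, was lower with each compound (-0.23, -0.14 and -0.28). The medians of the list were 0.17, 0.01 and 0.18 with Tet, Dox and 4-ED.

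Of 10 RNA and particle cofactors, SRO9, an RNA-binding protein, was past 1.5 times downward with 4-ED (-0.71, from 8.46 to 5.18 FPKM). UPF3, a factor of nonsense-mediated decay, had the highest ratio of this list with Tet (0.44, from 205 to 278 FPKM) and with 4-ED (0.38, from 203 to 264 FPKM), and BUD22, a ribosome biogenesis factor, the highest with Dox (0.36). PAT1 and DHH1, factors of mRNA decapping, were at -0.34 and -0.25 with Dox. NMD2, a partner of UPF3, was at 0.29 with Dox, and UPF1 was the lowest of the list with Tet (-0.14). Of 10 integration targets and partners, which are subunits of RNA polymerase III and its factors and proteins that tether integrase, none was past 1.5 times. BDP1, a subunit of TFIIIB, was the highest with each compound (0.42, 0.25 and 0.36) and RPC40, the polymerase subunit that Ty1 integrase binds, the lowest (-0.11, -0.16 and -0.31). SIR4, a silencing protein, was at 0.35 with Tet and 0.32 with 4-ED, TFC4, a TFIIIC subunit, at 0.19 with Dox, RPC37 at 0.02 with Tet and -0.13 with Dox, and ESP1, the separase, at -0.21 with 4-ED.

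The 14 mating genes were followed because of the pheromone response of Ty3. Their median log2 ratio was 0.27 for Tet, -0.17 for Dox and -0.03 for 4-ED. With Tet, 2 of the 14 were past 1.5 times upward, beside 3.65% of all rows. MF(ALPHA)1, an alpha-factor gene of the opposite mating type, was listed at 26.9 and 58.9 FPKM (1.13). FIG1, a membrane protein of mating cells, went from 1.49 to 2.24 FPKM (0.59), near the filter of 1 FPKM. The other alpha-factor gene, MF(ALPHA)2, is not in the list, and its log2 ratios were -0.08 with Tet, -0.03 with Dox and -0.03 with 4-ED. MFA2, an a-factor gene, was past 1.5 times downward with Dox (-0.64, from 4712 to 3027 FPKM). BAR1, the protease that cleaves alpha-factor, was lower with Dox (-0.57) and with 4-ED (-0.56), and FIG1 was at -0.47 with 4-ED. MF(ALPHA)1 had the highest ratio of the list also with Dox (0.53) and 4-ED (0.44), followed by MFA1, an a-factor gene, with Dox (0.37) and by KAR4, a regulator of mating genes, with 4-ED (0.40). STE2, the alpha-factor receptor, was the lowest with Tet (-0.18). The strain markers matched the genotype that the methods give for R1158 in that LEU2 and MET17 were listed at 0 in every group. URA3, where tTA is integrated in R1158, was listed at 231 FPKM. HIS3 was listed at 63.5 FPKM although the strain carries a his3 allele. The 5 MATa genes ranged from 35.7 to 4638 FPKM in the controls and the 4 MATalpha genes from 4.70 to 33.5 FPKM.

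The 18 loci of the rule outside Ty elements fell into 2 kinds. A set of 10 lay within 15 kb of a chromosome end, and 8 of these share their locus with YRF1 genes, the helicase genes of the subtelomeric Y′ elements, which are also repeats. All 10 were listed above the controls with each compound, and the median log2 ratio was 0.58 for Tet, 0.28 for Dox and 0.28 for 4-ED. With Tet, 5 of the 10 were past 1.5 times, beside the 3.65% of all rows, and none was past it with Dox or 4-ED. YPL283W-B on chromosome XVI was the highest with Tet (0.82, from 24.8 to 43.7 FPKM) and YIL177W-A on chromosome IX the lowest (0.48, from 20.5 to 28.7 FPKM). These 10 loci did not overlap the Ty loci in their ratios with Tet, and they did with 4-ED and Dox. Of the other 8, the locus of YLR154W-A, YLR154W-B and YLR154W-C in the ribosomal DNA was listed at 0, and the remaining 7 had medians of 0.07, 0.08 and 0.05. Their ratios ran from -0.75 in YJR140W-A to 1.64 in YER165C-A with 4-ED, the latter from 2.46 to 7.69 FPKM.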

How the data were processed

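Total RNA of 12 cultures was sequenced after mRNA selection, with 76 sequencing cycles. Per the submitters' processing notes, FastQC, Bowtie2 and Cuffdiff were used with build R64, and their versions are not given in the sources used here. The authors deposited 3 Cuffdiff tables whose FPKM values pool the 3 libraries of a group, and no value per library was used, so no test across cultures was made. The tables also hold the authors' own fold changes, test statistics, p-values and q-values, which were not used.

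Rows with at least 1 FPKM in control and treatment were kept, and treatment was divided by control on the log2 scale without a pseudocount. Rows past 1.5 times, and rows at least 25% higher or 20% lower, were counted with no p-value. A locus was placed in a Ty element when at least 90% of it lay inside a RefSeq R64 element. At 21 of 22 Ty loci the row and the RefSeq gene had the same start and end; the other row has no identifier, and its position is that of YPR158C-D. Starts are counted from 1. Copies were aligned with MAFFT 7.526, and windows and motifs were searched with Python 3.11.15, numpy 2.4.6, pandas 2.3.3 and Biopython 1.88. The ratio step was tested on simulated data. Genes were named by a rule: every Ty3 and Ty4 locus, the 3 highest and lowest Ty1 and Ty2 loci by control level and by ratio, and host genes past 1.5 times or among the 2 highest or 2 lowest ratios of their list with a compound. Members, lists and rules were chosen with earlier results of these data known. Alternatives were pseudocounts, filters, folds, centring, controls averaged over tables and other members or rows.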

Additional observations from a re-analysis of the deposited data

How the results depend on the processing

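No paired analysis was possible because each table holds 1 pooled value per group, and for the same reason no replicate could be left out. Over 21 results and 129 alternatives, 125 kept their value within 0.1 on the log2 scale or their count within 1.5 times. Many of these alternatives could not have changed their result. No Ty locus was past 1.5 times, so a fold of 2 or a pseudocount could only give a count of 0 again. All Ty loci with a value had a mean above 10 FPKM, so the other filters removed none. The controls averaged over tables came from the same libraries. A change of sign was counted only for main values past 1.5 times, and no main value was, so none could be counted. Counting Ty loci at least 25% higher instead of 1.5 times gave 19 higher with Tet, where the larger fold gave 0. The remaining exceptions came from alternatives chosen after seeing the data. Centring on genes of at least 4000 bases gave a Ty median of 0.255 with Tet and of -0.0747 with Dox, which changed the sign of the latter. Adding the FPKM of the Gag rows to that of the Gag-Pol rows, with no weight for row length, gave a log2 ratio of 0.0235 for Ty3 with Tet, in place of 0.42. The sum without the highest locus could not be given for Ty4, which has 1 locus. Depth per locus is unknown, so the error of low values such as those of Ty4 and of the Gag rows cannot be stated.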
